A study of Mus musculus with 6 samples.

Results

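The immediate early genes described here are 10 serum-inducible regulators: the zinc finger factors *Egr1*, *Egr2* and *Egr3*, the Krüppel-like factors *Klf2*, *Klf4*, *Klf6* and *Klf10*, the orphan nuclear receptor *Nr4a1*, and *Ier2* and *Ier3*. They were listed by name, and every probe set that the platform table gives to one of them alone was taken, which made 17 probe sets among 45037 and 10 genes among 18193. No probe set was shared by one of these genes and another gene. The list was drawn up when the differences between wild type and knockout on these same arrays were known. Their differences between the genotypes are therefore given as a description, without a test.

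The cells were fibroblasts grown in culture from tail tips of neonatal mice, either wild type or knockout for *Hotair*, a long noncoding RNA of the Hoxc cluster. Both groups came from mice backcrossed to C57BL6, and no further allele, agent or time point is given. There were 3 arrays of each genotype, numbered 1 to 3, and whether arrays of a genotype came from separate animals is not stated. The design of the knockout allele, the number of animals pooled and the serum or culture conditions before harvest are not given in the sources used here. Values are log2 probe set summaries, so a difference of 1 is a doubling.

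Immediate early genes are switched on within minutes of a growth factor, serum or stress signal without new protein synthesis. The signal runs through the ERK kinase cascade to serum response factor (SRF) and its Elk partners, or through CREB, and the transcripts are short-lived. Many of the products are transcription factors that start the next wave of genes, and feedback phosphatases and Egr corepressors then shut the response down. In fibroblasts this is the classical response of resting cells to serum, and it also answers handling and stretching of the culture.

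The arrays did not group by genotype alone. Replicate 1 of both genotypes was low in proliferation markers, the list median being −1.56 for wild type and −1.38 for knockout relative to each gene's mean, against 0.51 to 1.18 on the 4 other arrays. *Mki67*, a marker of cycling cells, measured 5.80 and 7.99 on these arrays and 11.35 to 11.98 on the others. Knockout replicate 1 also had the largest excess of 3′ over 5′ control probe sets, which degraded RNA can give (0.63 for *Actb* and 0.75 for *Gapdh*, against at most 0.21 and −0.03 elsewhere). It had the highest value of the macrophage marker *Tyrobp* too (9.14, against 4.88 to 5.45). *Lyz2* and *Cd68* were also highest there (10.57 and 7.85). *Csf1r*, *Cd14* and *Ptprc* were not (7.30, 7.89 and 4.23, against 7.50, 8.17 and 4.44 on wild-type replicate 1). The fibroblast collagens *Col1a1* and *Col1a2* were high on all arrays (11.86 to 12.79 and 14.35 to 14.68, where array medians were 5.56 to 5.68), but the fibroblast surface marker *Thy1* was 4.65 and 7.17 in wild-type replicates 2 and 3 against 10.28 to 12.15 on the others. The part of these features in the values below was not tested, except that values are given without the arrays concerned.

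All 10 genes had a lower mean in knockout, and their differences ran from −0.17 for *Egr2* to −1.88 for *Ier3*, with a median of −0.83 (0.01 over all 18193 genes). Of all genes, 48.9% had a lower mean in knockout. The knockout arrays were far apart. For 8 of the 10 genes knockout replicate 1 lay above knockout replicates 2 and 3, as it did for 44.9% of all genes. By replicate number the median difference was −0.01, −0.60 and −1.80, with 5, 8 and all 10 of the genes lower in knockout. Over all genes these medians were −0.03, −0.01 and 0.10, with 53.8%, 51.7% and 39.6% lower in knockout. The labels do not say that arrays of the same number belong together. Without both replicate 1 arrays the median was −1.40 (0.04 over all genes). For *Klf2*, *Klf6*, *Ier2* and *Ier3*, 4 of the 10, knockout was lower at each of the 3 replicate numbers, which held for 13.4% of all genes.

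The 3 knockout values lay wholly below the 3 wild-type values for 2 of the 10 genes, *Klf6* and *Ier2*, and for 4.38% of all genes. Knockout replicates 2 and 3 alone lay below wild-type replicates 2 and 3 for 7 of the 10, and for 23.6% of all genes. By limma, 0 of the 10 and 0 of all genes had an adjusted p under 0.05 (0.00% called, smallest adjusted p 0.743). At an unadjusted p under 0.05, 2 of the 10 were lower, against 2.67% of all genes. With the replicate block 3 were, against 4.23%. Without both replicate 1 arrays limma called *Egr1*, *Klf2* and *Klf6* lower, 3 of the 10, beside 6.41% of all genes called lower. With array weights it called these and *Ier2* lower, 4 of the 10, beside 4.85%. The weights were 0.244 for wild-type replicate 1 and 0.329 for knockout replicate 1, and every other array had at least 1.044. The weighted fit thus drew little on the replicate 1 arrays and is no separate check of the fit without them. The array-weight calls depended on the table fitted, since over all 45037 probe sets limma with array weights had 0 at an adjusted p under 0.05 (smallest adjusted p 0.0927, with 8455 at an unadjusted p under 0.05). Without both replicate 1 arrays the fit over probe sets called 2 of the 17 lower, beside 1836 of all 45037 called in either direction. The probe sets called lower were not counted apart over all 45037, so this pair of counts is not matched. The genes were chosen on this contrast, so these counts carry no weight of their own.

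**Figure D1:**
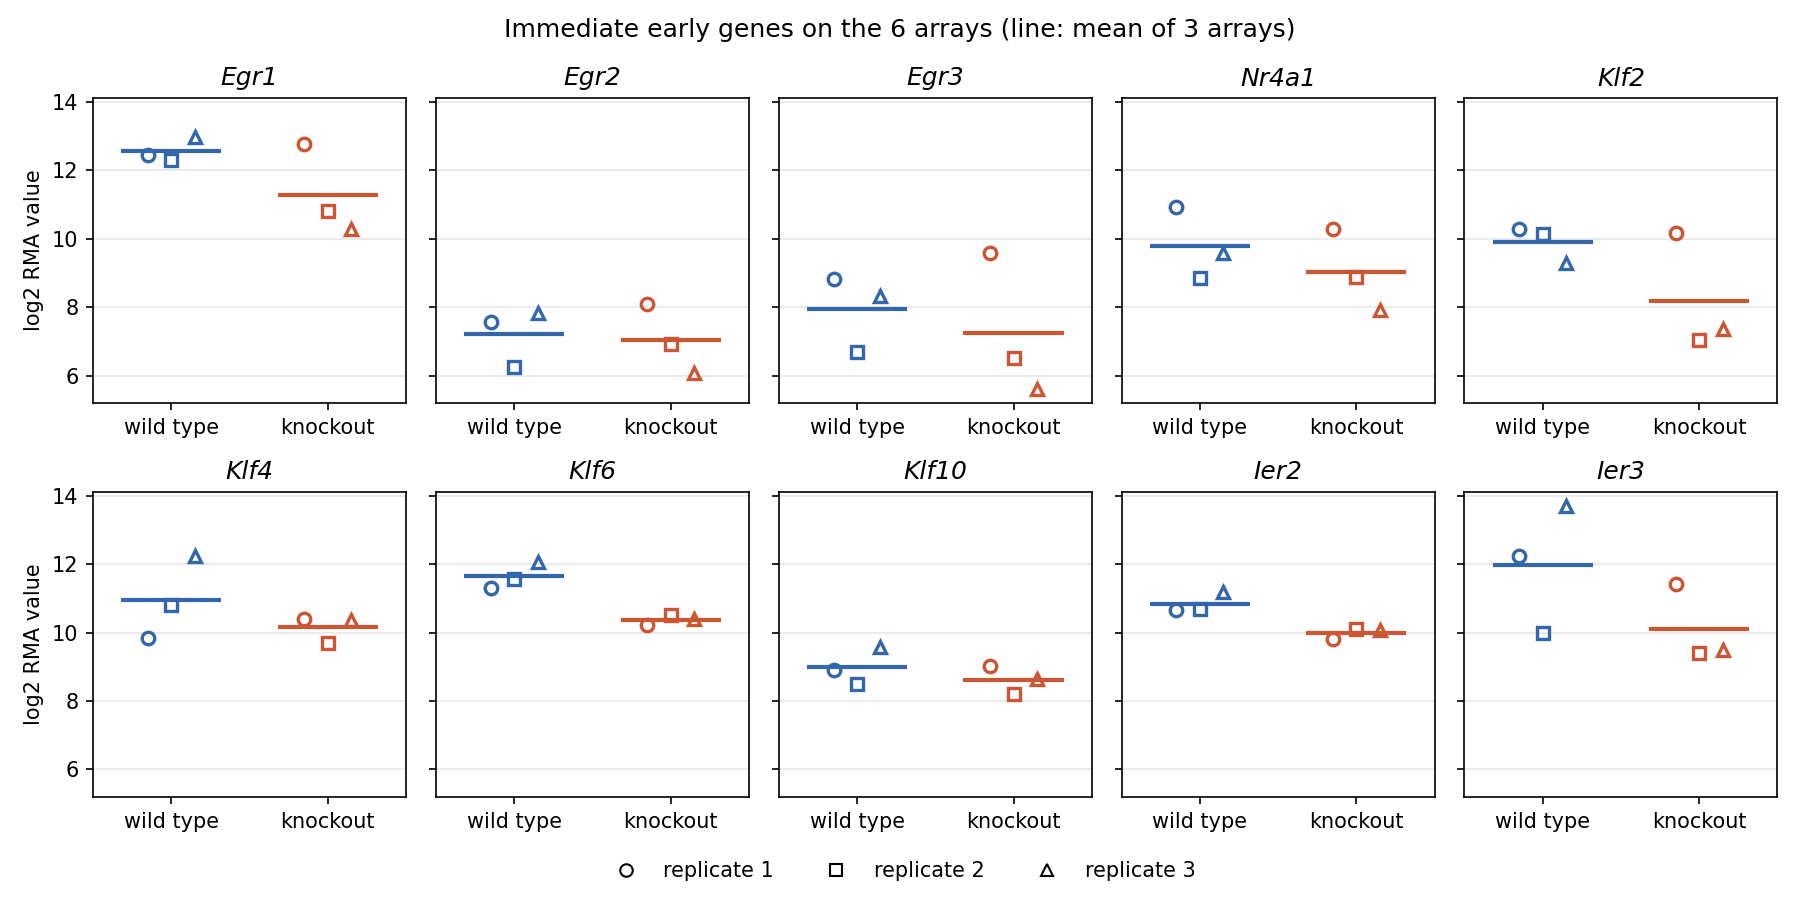
Log2 values of the 10 genes (1 panel each, vertical axis) in wild type and *Hotair* knockout; each symbol is 1 array, its shape the replicate number, and the line the mean of 3 arrays. The groups are separate for *Klf6* and *Ier2*, while for *Egr1* and *Klf2* knockout replicate 1 sits with the wild-type arrays and knockout replicates 2 and 3 lie below.

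The Egr factors bind GC-rich sites through zinc fingers, and *Egr1* is the member best known from serum-stimulated fibroblasts. *Egr1* read 12.44, 12.29 and 12.97 on the wild-type arrays and 12.78, 10.82 and 10.28 on the knockout arrays. Knockout replicate 1 lay within the wild-type range, and the 2 other knockout arrays lay below every wild-type array. The means were 12.57 ± 0.36 and 11.29 ± 1.31 (SD, n = 3), 2.42-fold lower in knockout with a log2 difference of −1.27 ± 0.66 (SE). Without knockout replicate 1 the difference was −2.02, and without knockout replicate 3 it was −0.77. *Egr1* has 1 probe set on the array.

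*Egr2*, known from Schwann cell myelination and hindbrain patterning, read 7.58, 6.24 and 7.82 on the wild-type arrays and 8.10, 6.93 and 6.09 on the knockout arrays. The groups overlapped throughout, and the highest value was on knockout replicate 1. The difference of −0.17 ± 0.64 (SE) was smaller than its error, and the second probe set had one of 0.07 ± 0.54. Its sign turned when the first wild-type array was left out (0.01), and likewise for the third wild-type array (0.13) and for knockout replicate 3 (0.30).

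*Egr3*, which acts in muscle spindles and T cells, read 8.82, 6.68 and 8.33 on the wild-type arrays and 9.58, 6.52 and 5.60 on the knockout arrays. It had both its highest and its lowest value among the knockout arrays, 3.98 apart. The difference was −0.70 ± 1.13 (SE), or −1.88 without knockout replicate 1 and 0.11 without knockout replicate 3. Its other probe set stayed between 6.26 and 6.53 on all arrays, with a difference of −0.07 ± 0.13. Over the 6 arrays *Egr2* and *Egr3* had a Pearson's r of 0.94, a description of 6 points that share their arrays.

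*Nr4a1*, a nuclear receptor induced by growth factors and by cyclic AMP, read 10.93, 8.84 and 9.57 on the wild-type arrays and 10.30, 8.89 and 7.92 on the knockout arrays. Both replicate 1 arrays were its highest, and the groups overlapped. The difference was −0.74 ± 0.77 (SE). It became −1.38 on leaving out knockout replicate 1, and −0.17 on leaving out wild-type replicate 1. Its r with *Egr3* was 0.92, and with *Klf4* it was −0.08, so the 10 genes did not share a single pattern.

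*Klf2*, a factor that keeps endothelium and lymphocytes quiescent, read 10.29, 10.13 and 9.29 on the wild-type arrays and 10.16, 7.03 and 7.36 on the knockout arrays. As for *Egr1*, knockout replicate 1 stood among the wild-type arrays, and the 2 others were lower than any. The means were 9.90 ± 0.54 and 8.18 ± 1.72 (SD, n = 3), and knockout was 3.29-fold lower (−1.72 ± 0.87, SE). Knockout replicate 1 was 2.97 above the mean of the 2 other knockout arrays, more than the difference between the genotypes. By replicate number the differences were −0.13, −3.10 and −1.93. The endothelial markers *Pecam1* and *Cdh5* were dim on all arrays (3.72 to 4.01 and 3.72 to 4.18), and 0 of 9 endothelial markers had a mean of 6 or more. *Emcn*, the one with separate groups, lay between 3.34 and 3.70 on all arrays (−0.25 ± 0.13, SE). The mean log2 value of the list lay between 4.35 and 4.57 in wild type and between 4.28 and 4.45 in knockout.

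*Klf4*, a factor of skin barrier formation and growth arrest, read 9.84, 10.80 and 12.24 on the wild-type arrays and 10.40, 9.69 and 10.37 on the knockout arrays. The spread lay in wild type, where replicate 3 stood 1.43 above replicate 2, and the groups overlapped. The difference of −0.81 ± 0.62 (SE) was −0.17 without wild-type replicate 3. Its 2 probe sets gave −0.81 and −0.82. Of 8 keratinocyte markers measured, 2 had a mean of 6 or more, and *Krt14*, which defines basal keratinocytes, stayed between 4.66 and 4.80. *Dsp*, the desmosomal marker of the same list, read 6.43, 6.74 and 6.18 on the wild-type arrays and 5.49, 3.58 and 3.70 on the knockout arrays, with separate groups and a difference of −2.20 ± 0.54 (SE). The part of keratinocytes in the *Klf4* values was not tested. The keratinocyte list had mean log2 values of 5.18 to 5.47 in wild type and 4.94 to 5.31 in knockout.

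*Klf10*, an early target of TGF-beta, had the smallest difference of the Klf genes listed. It read 8.91, 8.51 and 9.58 on the wild-type arrays and 9.01, 8.20 and 8.63 on the knockout arrays, with groups that overlapped and a difference of −0.39 ± 0.34 (SE). Without wild-type replicate 3 it was −0.09.

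*Klf6*, a widely expressed tumour suppressor induced by injury, differed among its own probe sets. The brightest of its 5 probe sets (1427742_a_at), which stood for the gene, read 11.30, 11.57 and 12.06 on the wild-type arrays and 10.23, 10.52 and 10.39 on the knockout arrays. All knockout arrays were at least 0.78 below all wild-type arrays. The means were 11.65 ± 0.39 and 10.38 ± 0.14 (SD, n = 3), 2.40-fold lower in knockout (−1.27 ± 0.23, SE), and the differences by replicate number were −1.07, −1.06 and −1.67.

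The 3 other bright probe sets of *Klf6* gave another picture at replicate 1. Probe set 1418280_at read 9.50, 9.74 and 10.59 on the wild-type arrays and 9.44, 8.50 and 8.35 on the knockout arrays. For this probe set the groups were still separate, by 0.05. Probe set 1433508_at measured 9.79, 10.06 and 11.00 against 9.92, 9.17 and 9.06, and 1447448_s_at measured 9.82, 10.03 and 11.09 against 10.14, 9.10 and 8.93. On all 3, knockout replicate 1 was level with wild-type replicate 1, with differences of −0.05, 0.13 and 0.32. The fifth probe set, 1459718_x_at, was dim (3.56 to 5.10).

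So 3 of the 17 probe sets of the 10 genes had groups that did not overlap, of which 2 were for *Klf6* (4.43% of all probe sets had knockout wholly lower). Averaged over its probe sets, *Klf6* differed by −0.94. Knockout replicate 1 stood 0.81 to 1.13 above the mean of the 2 other knockout arrays on these 3 probe sets, but 0.22 below it on the brightest. Over the 6 arrays the brightest probe set had an r of 0.99 with *Ier2* and 0.58 with *Egr1*, and the 3 others had 0.69 to 0.78 and 0.86 to 0.91. Why probe sets of 1 gene disagreed was not tested.

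**Figure D2:**
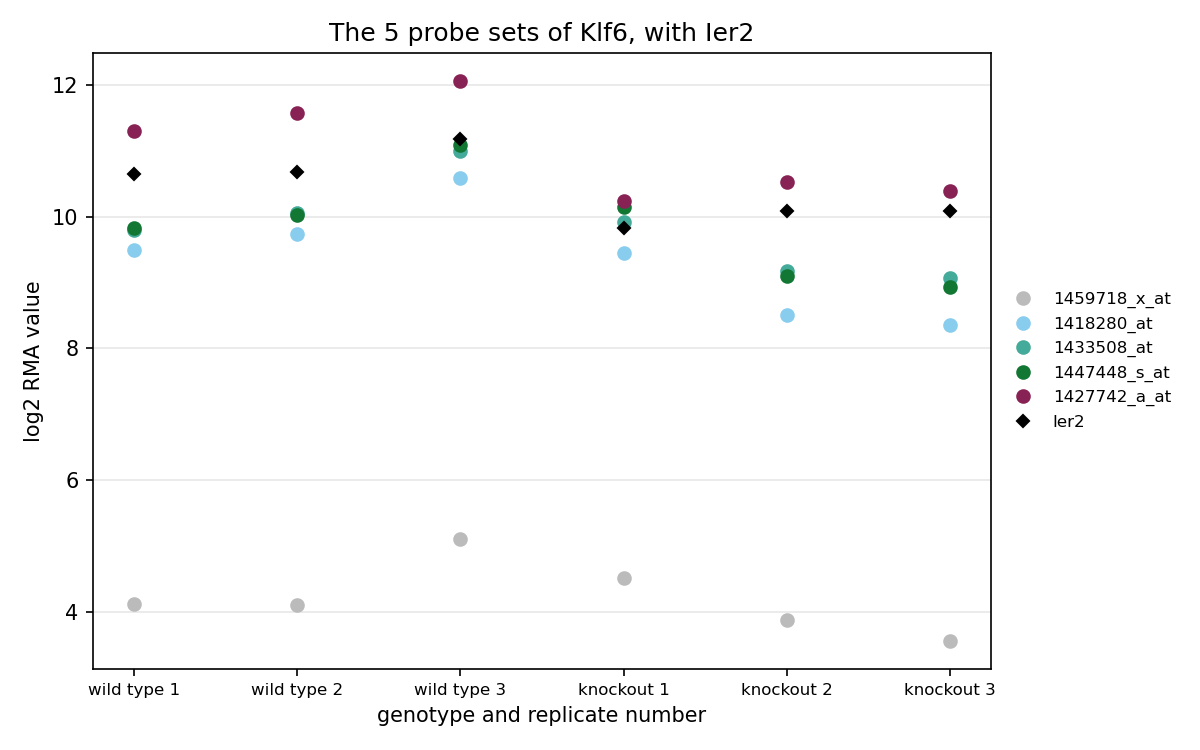
Log2 values (vertical axis) of the 5 *Klf6* probe sets and of *Ier2* (diamonds) on each of the 6 arrays (horizontal axis). On knockout replicate 1 the brightest probe set and *Ier2* are at the level of the other knockout arrays (10.23 and 9.82), whereas the 3 probe sets below it are at 9.44, 9.92 and 10.14, near wild-type replicate 1.

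*Ier2*, a short-lived nuclear protein made early after serum, was the second gene without overlap. It read 10.65, 10.68 and 11.18 on the wild-type arrays and 9.82, 10.09 and 10.08 on the knockout arrays, from 1 probe set. The lowest wild-type array stood 0.57 above the highest knockout array. The means were 10.84 ± 0.29 and 9.99 ± 0.15 (SD, n = 3), 1.79-fold lower in knockout (−0.84 ± 0.20, SE). Leaving out any 1 array kept the difference between −0.93 and −0.67.

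*Ier3*, a modulator of cell death and ERK signalling, had the largest difference of the 10 and the widest range over the 6 arrays (4.33). It read 12.24, 9.99 and 13.71 on the wild-type arrays and 11.41, 9.39 and 9.50 on the knockout arrays. Wild-type replicates 2 and 3 were 3.72 apart, so the groups overlapped although each knockout array was lower than the wild-type array of the same number. The means were 11.98 ± 1.88 and 10.10 ± 1.13 (SD, n = 3), a difference of −1.88 ± 1.05 (SE). It was −1.02 without wild-type replicate 3 and −2.88 without wild-type replicate 2.

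Wild-type replicate 3 was the highest of the wild-type arrays for 7 of the 10 genes, against 23.2% of all genes. Of the 10, 6 had their highest value there, and 8 had their lowest value on knockout replicate 2 or 3, with 4 on each. The shares of all genes with such extremes over the 6 arrays were not counted. The 10 genes were chosen on this contrast, so low values on knockout arrays carry no weight of their own.

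**Figure D3:**
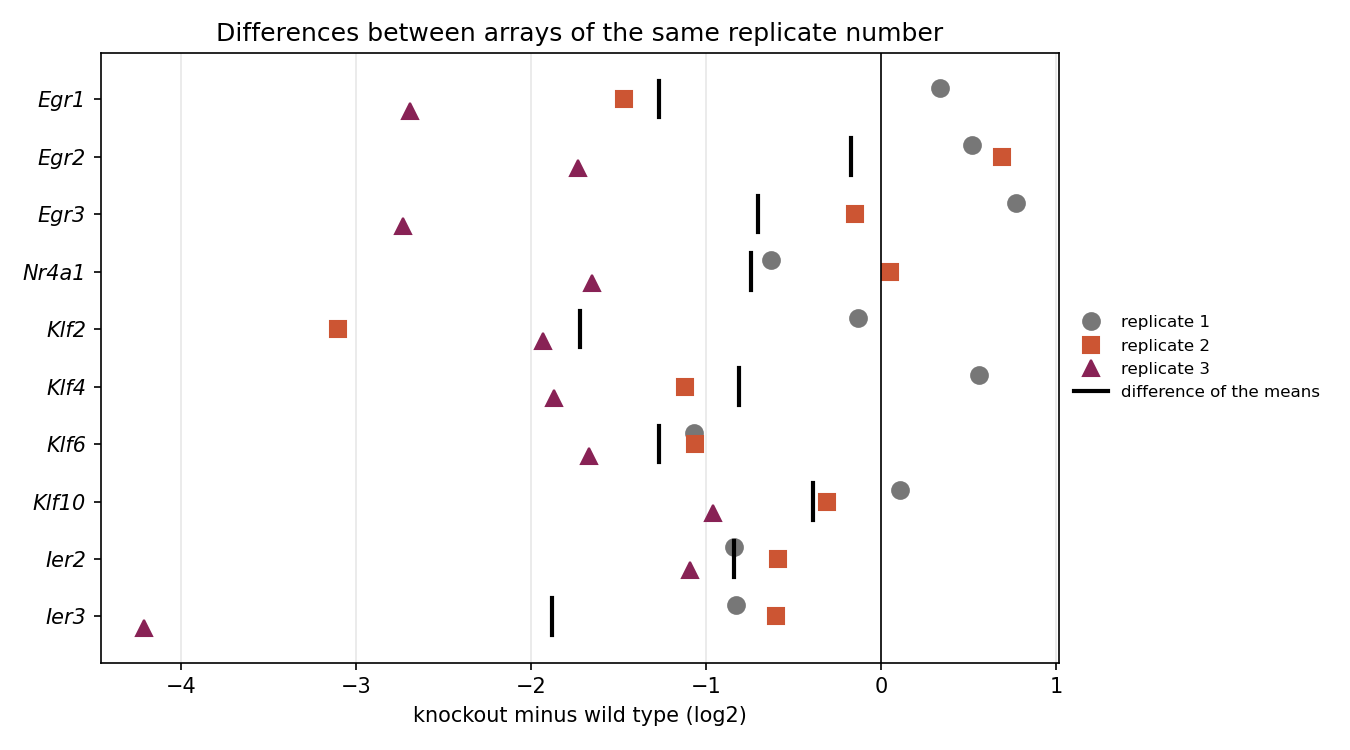
Knockout minus wild type in log2 units (horizontal axis) for each gene, separately for arrays of replicate number 1, 2 and 3, with the difference of the means as a black bar. Replicate 3 lies below 0 for all 10 genes, and replicate 1 lies above 0 for *Egr1*, *Egr2*, *Egr3*, *Klf4* and *Klf10*.

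The DNA upstream of the genes shows which of them carry exact matches to the classical serum elements close to the start. The promoter table of RefSeq (GRCm38.p6), with 250 bases before and 50 after a listed start, held 10 windows for 6 of the genes (*Egr2*, *Klf2*, *Klf4*, *Klf6*, *Ier3* and *Nr4a1*). *Egr1*, *Egr3*, *Klf10* and *Ier2* had no entry. The 120 bases before a start are shown for *Klf2*, *Ier3*, *Klf6* and *Nr4a1*. These 4 had a large difference, a probe set without overlap or an extreme on replicate 1. The 120 bases are also shown for *Egr2*, the one with an exact match to the SRF element. All lie on the plus strand and read 5′ to 3′. Capitals mark a CArG box (the SRF element, which reads alike on both strands), TGACG (the core of the CREB element), GGGCGG (a GC box), TATAA or CCGGAA (an Ets-type site), each on either strand.
*Egr2*, chr10:67537446-67537565: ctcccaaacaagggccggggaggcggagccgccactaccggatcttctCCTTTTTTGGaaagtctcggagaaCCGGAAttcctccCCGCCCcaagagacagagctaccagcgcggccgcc
*Klf2*, chr8:72318942-72319061: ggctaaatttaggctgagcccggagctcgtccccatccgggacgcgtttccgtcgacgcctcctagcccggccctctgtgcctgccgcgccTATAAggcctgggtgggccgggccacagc
*Klf6*, chr13:5861369-5861488: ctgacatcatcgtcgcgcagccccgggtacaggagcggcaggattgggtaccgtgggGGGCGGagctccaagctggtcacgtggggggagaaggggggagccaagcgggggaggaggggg
*Ier3*, chr17:35821593-35821712: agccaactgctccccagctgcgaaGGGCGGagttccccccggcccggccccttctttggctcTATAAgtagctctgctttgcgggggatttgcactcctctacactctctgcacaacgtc
*Nr4a1*, chr15:101266726-101266845: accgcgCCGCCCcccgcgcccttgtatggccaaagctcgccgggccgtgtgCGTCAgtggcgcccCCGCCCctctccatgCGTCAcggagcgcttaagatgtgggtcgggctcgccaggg

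Motifs were matched exactly, a CArG box being CC, 6 bases of A or T and GG, so near matches were not counted. In the whole windows a CArG box was found for 1 of the 6 genes, *Egr2*, and for 1.8% of the 27025 genes in the table. In the stretch shown it begins 72 bases before the start, and an Ets-type site begins 48 bases before the start. A GC box was found for 6 of 6 genes (38.2% of all genes). TGACG was found for 4, *Egr2*, *Klf2*, *Klf4* and *Nr4a1* (23.0%), where *Nr4a1* has it 233, 213, 69 and 40 bases before its start. TATAA was found for 4, *Egr2*, *Klf2*, *Klf4* and *Ier3* (28.0%), and CCGGAA for 2, *Egr2* and *Nr4a1* (16.7%). *Egr2* has 5 windows from 5 listed starts, which gives it more chances of a match. *Egr1*, *Egr3*, *Klf10* and *Ier2* have no window, so the motifs cannot be set against the differences of the 10 genes. A match is a description of the letters and shows no binding.

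Other genes of the same signalling route were taken from lists chosen with earlier results of these data known. By limma 0 of them had an adjusted p under 0.05 in any list, in either direction, as for all genes, and the counts at an unadjusted p under 0.05 were at most 1 for each of the signalling lists below. Among SRF and its partners 5 of 6 had a lower mean in knockout, with a median of −0.16. *Elk3*, an Ets partner of SRF, read 11.39, 11.69 and 11.76 on the wild-type arrays and 11.06, 11.01 and 10.92 on the knockout arrays (−0.61 ± 0.15, SE). Its groups were separate, and knockout replicate 1 was with the other knockout arrays. Without knockout replicate 1 the list median was −0.44.

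The ERK cascade list had 8 of 15 genes analysed here, 5 lower and 3 higher, with a median of −0.20, and *Map2k1*, the kinase that activates ERK, had the largest difference (−0.68 ± 0.38, SE). The median was −0.60 without wild-type replicate 1, 0.04 without wild-type replicate 2 and 0.21 without wild-type replicate 3, and −0.06 without knockout replicate 1, so its sign rests on single arrays. Of the 12 ERK feedback genes 6 were lower and 6 higher, with a median of 0.00. *Dusp6*, a phosphatase of ERK that ERK itself induces, read 10.89, 10.79 and 11.99 on the wild-type arrays and 10.30, 9.54 and 9.54 on the knockout arrays. These groups did not overlap, and the difference was −1.43 ± 0.40 (SE). The Ras and Raf inhibitor *Spred1* was separate in the other direction, at 0.39 ± 0.19 (SE).

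Egr activity is curbed by the Nab corepressors, of which *Nab2* is itself induced by Egr factors. *Nab2* read 9.59, 10.66 and 10.60 on the wild-type arrays and 10.04, 9.61 and 9.63 on the knockout arrays. It was the lowest of all on wild-type replicate 1, and the groups overlapped (−0.52 ± 0.33, SE). *Nab1* read 9.70, 11.49 and 11.38 on the wild-type arrays and 10.48, 11.68 and 11.55 on the knockout arrays, low on both replicate 1 arrays.

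Of the relatives in the Egr, Klf, Nr4a and Ier families, 17 of 18 were measured, 11 lower and 6 higher, with a median of −0.18, and none had separate groups. That median was 0.00 on leaving out knockout replicate 2, −0.05 and −0.06 on leaving out the first and the third wild-type array, −0.03 with array weights, and −0.31 on leaving out knockout replicate 1. *Klf12*, a repressor of the family, had the largest difference and ran the other way. It read 5.57, 4.59 and 5.99 on the wild-type arrays and 5.45, 8.61 and 8.54 on the knockout arrays (2.14 ± 0.93, SE). Its knockout replicate 1 again stood with wild type.

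The Fos and Jun family, which forms the AP-1 factor, had a lower mean for 7 of 7 genes (median −0.69), and 0 of 7 had separate groups. *Junb* read 9.49, 9.25 and 9.67 on the wild-type arrays and 9.94, 7.13 and 6.88 on the knockout arrays. Of 20 other immediate early genes 19 were lower, with a median of −0.59 and differences from −1.95 to 0.58. Leaving out wild-type replicate 3 brought the median to −0.18, and leaving out knockout replicate 1 or 3 to −0.96 or −0.38. *Gadd45b*, a stress-induced gene, read 10.86, 11.87 and 11.13 on the wild-type arrays and 10.77, 9.93 and 9.82 on the knockout arrays. It was the one gene of this list with a mean of 6 or more and separate groups (−1.11 ± 0.37, SE).

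By replicate number, 1 to 3, the Fos and Jun family had medians of 0.43, −0.65 and −1.94. The other immediate early genes had 0.02, −0.40 and −1.39, against −0.01, −0.60 and −1.80 for the 10 genes described. Without both replicate 1 arrays the median was −1.15 for the Fos and Jun family and −0.99 for the other immediate early genes. The 3 lists share all their arrays, so this is no independent support. Heat shock genes, which mark cell stress, had a median of 0.07, with 5 lower and 5 higher. Relative to each gene's mean, their median was highest on wild-type replicate 3 (0.37, against −0.28 to 0.15 elsewhere). There *Hspa1a* read 10.64 (8.39 to 8.89 elsewhere) and *Hspa1b* 13.59 (11.71 to 12.26), whereas *Hspb1* and *Hspe1* were at their lowest (9.42 and 12.68). The part of stress in the values of the 10 genes was not tested. Of the heat shock genes *Hspe1* was separate upwards (0.52 ± 0.14, SE) and *Hspa8* downwards (−0.25 ± 0.14, SE).

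**Figure D4:**
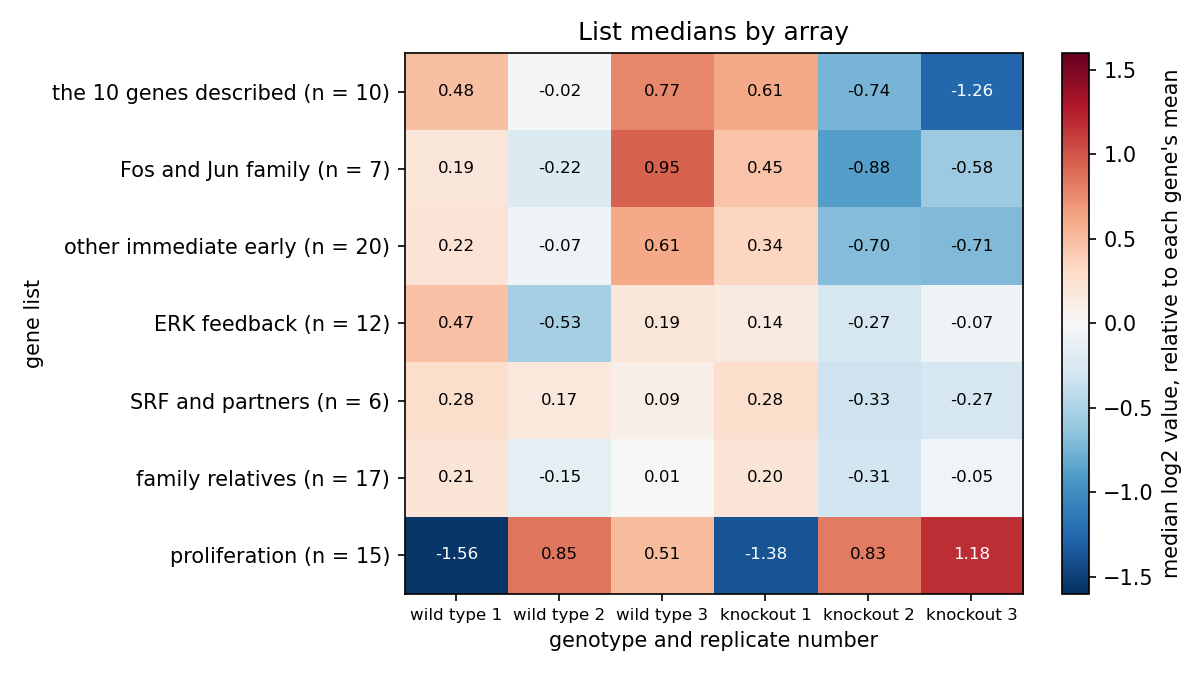
Median log2 value of each gene list (rows) on each array (columns), relative to each gene's mean over the 6 arrays, with the value printed in each cell and shown by colour. The 10 genes described are lowest on knockout replicates 2 and 3 (−0.74 and −1.26) and at 0.61 on knockout replicate 1, and proliferation markers are low on both replicate 1 arrays.

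Over the 6 arrays the mean profile of the 10 genes, each centred on its own mean, was 0.61, −0.12 and 0.98 on the wild-type arrays and 0.49, −0.89 and −1.07 on the knockout arrays. *Egr1* and *Ier3* were the closest to the mean of the 9 others (r = 0.94 and 0.90), and *Klf4*, *Ier2* and *Klf6* the least close (0.45, 0.53 and 0.54). Among 4469 other genes with a mean of at least 6 and an SD of at least 0.5, the 5 most like this profile were *Dusp5* (r = 0.998), *Tnfaip3* (0.996), *Iffo2* (0.994), *Gpr137b* (0.994) and *Rnf11* (0.992), over 6 arrays. *Dusp5*, an ERK phosphatase that is itself an immediate early gene, read 10.28, 8.77 and 11.36 on the wild-type arrays and 10.16, 7.30 and 7.00 on the knockout arrays. With 6 arrays and 4469 genes searched, these values of r are given only as a ranking.

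Marker levels of other cell types were set beside these values. Fibroblast markers had mean log2 values of 11.18 to 12.34 in wild type and 12.69 to 12.85 in knockout, and the 11 markers all had a mean of 6 or more. *Dcn*, a matrix proteoglycan, lay between 6.87 and 10.94 in wild type and between 11.54 and 12.98 in knockout, without overlap. *Col3a1* and *Pdgfrb* were also separate upwards, with differences of 0.59 and 0.30, and the filament protein gene *Vim* was separate downwards, by −0.24. Leukocyte markers had list means of 5.36 to 5.99 in wild type and 5.28 to 6.86 in knockout, highest on knockout replicate 1, and 4 of 10 had a mean of 6 or more. The pan-leukocyte marker *Ptprc* stayed between 3.84 and 4.44. *Cd14*, which fibroblasts can also express, read 8.17, 8.35 and 8.89 on the wild-type arrays and 7.89, 5.87 and 5.75 on the knockout arrays, with separate groups. Skeletal muscle markers had list means of 5.02 to 5.71 and 4.74 to 5.40, with 2 of 9 at a mean of 6 or more and *Myod1*, the master factor of muscle, between 3.90 and 4.06. The muscle actin *Acta1* differed by −2.27 ± 1.58 (SE). In a bulk sample, fewer cells with a transcript and less of it per cell cannot be told apart, and the part of cell makeup in the lower values was not tested.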

How the data were processed

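The authors deposited log2 values per probe set for 6 mouse arrays, summarised by RMA (R 2.11.1), as the submitters' processing notes name it. This method equalises the intensity distributions of the arrays, so a change in total RNA is not seen, and it compresses differences of dim probe sets. Of 45101 probe sets, 64 were controls and 34945 named 1 gene in the platform table. Where several probe sets named a gene alone, the one with the highest mean stood for it, which left 18193 genes. Of these genes 99.12% were found by Entrez identifier in the RefSeq gene table, which changed 0 symbols.

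The test was limma 3.58.1 (lmFit, eBayes; R 4.3.3), with genotype as the only term, over all genes and over all probe sets, and Benjamini-Hochberg adjustment at 0.05. SEs are limma's. P-values then reflect only how far these samples differ from each other, possibly for technical reasons, and 3 arrays a group limit the precision. The members and lists were chosen with earlier results of these data known. Beside the 10 members, genes were named by a rule: from each list up to 3 with separate groups and a mean of at least 6, or else the one with the largest difference. *Mki67*, *Thy1*, *Tyrobp*, *Lyz2*, *Cd68*, *Csf1r*, *Col1a1*, *Col1a2*, *Nab1*, *Pecam1*, *Cdh5*, *Krt14*, *Ptprc*, *Vim*, *Myod1*, *Hspa1a*, *Hspa1b* and *Hspb1* were named outside it, after their values were seen, as checks of arrays and cell types. *Mcm6*, named by the rule, differed by 0.80.

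The labels give replicate numbers and do not say that arrays of the same number belong together. Arrays of the same number deviated together from their genotype means (r over genes 0.509, 0.386 and 0.347). Wild-type replicate 3 correlated more with knockout replicate 2 (0.431), and wild-type replicate 2 had 0.281 with knockout replicate 3. Deviations from a mean of 3 arrays sum to 0, so these r are not independent. They set replicate 1 apart and cannot decide how replicates 2 and 3 pair. Differences by replicate number follow the numbers in the labels alone. The replicate block was an alternative, with the others given below. The scripts were tested on simulated data.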

Additional observations from a re-analysis of the deposited data

How the results depend on the processing

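The 10 members kept a negative difference in 146 of 150 fits under 15 alternatives. The exceptions were *Egr2* in 3 and *Egr3* in 1. Part of the 150 could not differ from the main fit. The replicate block, another limma prior and the filter at a mean of 6 leave each difference as it was. Other choices of probe set do so for the 6 members with 1 probe set. The members were also chosen on this contrast, so the count is no support. The median over the members ran from −1.283 (without knockout replicate 1) to −0.760 (without wild-type replicate 3) when 1 array was left out. Genes called numbered 0 over all arrays and with the replicate block, and probe sets likewise. The block left the median at −0.825 and, with fewer degrees of freedom, called none of the members. Leaving out 1 array gave 0 to 87 genes and 0 to 48 probe sets, both highest without knockout replicate 1. Without both replicate 1 arrays 2542 genes and 1836 probe sets were called, and array weights called 2101 genes but 0 probe sets. The cause of these increases was not tested. Both replicate 1 arrays had the lowest array weights, so the weighted fit overlaps with the fit that leaves them out. Leaving out 1 array moved the SRF list between −0.435 and −0.034 and the ERK feedback list between −0.414 and 0.186. The ERK cascade list lay between −0.604 and 0.208, the family relatives between −0.307 and 0.002, the Nab pair between −0.533 and 0.180, heat shock genes between −0.175 and 0.233, the Fos and Jun family between −1.072 and −0.397, and the other immediate early genes between −0.957 and −0.185. The proliferation list moved between −0.516 (without wild-type replicate 1) and 1.192 (without knockout replicate 1). Averaging its probe sets moved *Klf6* to −0.944. No other scaling moved the median of all genes by more than 0.1. Depth does not apply to arrays, and dim probe sets such as the fifth of *Klf6* carry little signal over background.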

Other observations

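Several early genes outside the naming rule had the pattern of *Egr1* and *Klf2*, and they were chosen after their values were seen. *Rhob*, a small GTPase, read 11.63, 11.40 and 11.62 on the wild-type arrays and 11.70, 8.41 and 8.70 on the knockout arrays. *Btg2*, an antiproliferative gene, read 11.32, 11.31 and 10.79 on the wild-type arrays and 11.43, 8.31 and 7.89 on the knockout arrays. *Ccn1*, a matricellular protein, read 13.24, 13.28 and 12.78 against 13.24, 10.83 and 10.39. Over all genes, 284 (1.56%) were at least 1 log2 unit lower on knockout replicates 2 and 3 than on each of the 4 other arrays, and 238 (1.31%) were at least as much higher. Among the members, 2 of 10 were low in this way, *Egr1* and *Klf2*, and of the 20 other immediate early genes 4 were, these 3 and *Zfp36*. *Klf5* was low in this way too (10.22, 9.48 and 10.84 on the wild-type arrays, 10.63, 8.22 and 8.41 on the knockout arrays).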
